A study of Mus musculus with 15 samples.

Results

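Dnmt1 is the maintenance DNA methyltransferase, and cortex of mice with a dominant Dnmt1 mutation was profiled by RNA immunoprecipitation with an antibody against 5-methylcytosine (m5C), and the libraries of both mutant genotypes were set against the wild type (WT) library. The comparison holds 4 of the 15 libraries of the series: 1 m5C RIP library from WT cortex, 1 from heterozygous (Het) cortex, 1 from homozygous (Hom) cortex, and 1 cortex input. The amino acid change of the allele, and the strain, age and sex of the animals that gave the cortex, were not stated in the sources used here, and neither was whether a library came from 1 animal or from several. The input library is labelled with an IgG antibody and with no genotype, so it is 1 reference level shared by all 3 m5C libraries. With no input of each genotype, a difference in the RNA pulled down cannot be told apart from a difference in RNA abundance. Likewise, in bulk tissue, fewer cells of a type and less RNA per cell cannot be told apart. Since each group is 1 library, every comparison here rests on the single WT library, and p-values measure only the spread between the Het and Hom libraries.

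5-methylcytosine is a base that methyltransferases of the Nsun family and Trdmt1 place in transfer, ribosomal, mitochondrial and some messenger RNAs. An m5C RIP fragment is retained when the antibody binds it, so its count reflects both the abundance of the RNA and its recovery. Dnmt1 copies methylation of CG dinucleotides in DNA to the new strand after replication. Among its best known substrates is the major satellite, a tandem repeat of pericentromeric heterochromatin in mouse whose transcripts are mostly not polyadenylated.

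Several transcripts that stood furthest apart between WT and the mutants were annotated from such tandem repeats, and their sequences are shown because 5 of the called genes carry them. The GENCODE M21 transcript Gm26870-202 (1143 bases, mm10) repeated itself with a period of 234 bases and an identity of 95.9% between one period and the next. A total of 13 annotated genes matched this unit over at least 100 bases with at least 80% identity. Of these, 10 lay at chr9:3000282-3038313, where Gm26870 lies on the minus strand, Gm10800 and Gm10801 on chromosome 2, and Gm21738 on chromosome 14. The first unit of Gm26870 is printed whole, 5′ to 3′. For 4 other genes 117 bases are printed in the orientation of that unit, which is the reverse complement of their annotated transcript, with each base that differs from the unit in capitals.
Gm26870: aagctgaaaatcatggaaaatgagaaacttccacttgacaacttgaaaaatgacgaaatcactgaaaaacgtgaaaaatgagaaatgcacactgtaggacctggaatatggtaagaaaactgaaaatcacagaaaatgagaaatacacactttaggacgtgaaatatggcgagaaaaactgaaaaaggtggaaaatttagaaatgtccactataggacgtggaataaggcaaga
Gm10800: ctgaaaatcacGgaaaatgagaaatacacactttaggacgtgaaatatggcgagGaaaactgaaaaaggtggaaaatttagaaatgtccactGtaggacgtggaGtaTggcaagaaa
Gm10801: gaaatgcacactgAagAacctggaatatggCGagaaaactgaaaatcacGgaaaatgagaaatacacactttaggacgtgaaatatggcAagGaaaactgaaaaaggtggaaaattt
Gm10722: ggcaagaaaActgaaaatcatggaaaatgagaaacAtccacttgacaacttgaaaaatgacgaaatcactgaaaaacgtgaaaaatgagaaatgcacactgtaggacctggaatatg
Gm21738: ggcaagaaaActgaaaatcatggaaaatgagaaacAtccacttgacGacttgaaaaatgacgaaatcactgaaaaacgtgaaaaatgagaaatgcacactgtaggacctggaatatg
The stretch of Gm10722 differed from the unit at 2 of its bases, that of Gm21738 at 3, that of Gm10800 at 5 and that of Gm10801 at 7. Reads from such copies cannot be assigned to 1 locus with certainty, so the genes are described both singly and as a sum. Their names were chosen after their values were seen.

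The gene counts were 1310590 in WT, 1434653 in Het, 2408694 in Hom and 4913482 in input, so WT was the shallowest library. Reads that did not align made up 86.3% of entries in WT, 79.7% in Het, 79.3% in Hom and 63.2% in input. Neuronal transcripts were at high level in every library: the 12 neuron markers together reached 6830 CPM (counts scaled to 1e6 per library with TMM factors) in WT, 6679 in Het, 6807 in Hom and 6146 in input. Ddx3y, a gene of the Y chromosome, was present in all 4, at 36.5 CPM in WT, 71.2 in Het, 51.7 in Hom and 46.6 in input. Tests and ratios cover the 10417 genes with a mean of at least 10 CPM over the 4 libraries. Ratios are log2 ratios of normalised counts with a prior count of 2.

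Dnmt1 itself was recovered less in both mutants. It had 1660.0 CPM in WT, 1141 in Het, 1109 in Hom and 1134 in input. The log2 ratio to input was 0.01 in Het and −0.03 in Hom, and WT stood alone above, at 0.55. Dnmt1 fell by 0.56 ± 0.10 (SE) on the log2 scale with an adjusted p of 0.019 in edgeR's quasi-likelihood test, in which Het and Hom form 1 arm, WT the other, and p-values are adjusted by Benjamini-Hochberg. The test called 32 of 10417 genes (0.307%), of which 23 were lower (0.221%) and 9 higher (0.0864%) in the mutants. Among the 17 tested members of the DNA methylation machinery, Dnmt1 alone was called, 3 lay above WT in both mutants and 4 below. These are 17.65% and 23.5%, against 37.7% and 36.3% of all genes tested. Dnmt3a, a de novo methyltransferase, had 204 CPM in WT, 262 in Het, 253 in Hom and 224 in input (adjusted p = 0.43). Mbd3, a methyl-CpG-binding-domain protein of the NuRD complex, had 79.3, 54.1, 57.4 and 63.0 CPM in the same order (adjusted p = 0.43). Mbd4, a thymine glycosylase, had 5.44, 9.59, 12.8 and 12.3 CPM (adjusted p = 0.61).

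The enzymes that write, remove or bind m5C in RNA showed no call. Of the 14 tested members of that list, 6 (42.9%) lay above WT in both mutants and 3 (21.4%) below, against 37.7% and 36.3% of all genes. The median log2 ratio of the members to WT was 0.00 in Het and 0.07 in Hom, against 0.01 and 0.01 over all genes tested. Their summed level was 744 CPM in WT, 762 in Het, 761 in Hom and 755 in input. Nsun5, which methylates ribosomal RNA, had 14.8 CPM in WT, 11.6 in Het, 11.98 in Hom and 9.20 in input (adjusted p = 0.87). Ybx1, which binds m5C in messenger RNA, had 90.9, 74.6, 75.6 and 82.4 CPM (adjusted p = 0.66). Alkbh1, an oxygenase that acts on m5C in transfer RNA, had 15.5, 19.2, 19.01 and 16.4 CPM (adjusted p = 0.85). Fmr1, an RNA-binding protein of synaptic translation, had 44.3, 55.5, 80.6 and 52.7 CPM (adjusted p = 0.40).

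The tandem-repeat genes were far lower in the mutants. The 13 genes together held 0.555% of gene counts in WT (95% exact binomial interval 0.542 to 0.568), 0.0497% in Het (0.0461 to 0.0535), 0.0667% in Hom (0.0635 to 0.0700) and 0.133% in input (0.129 to 0.136). These intervals cover counting error only. In normalised counts WT was 11.6 times Het, 8.52 times Hom and 4.25 times input, so WT lay above input and both mutants below it. Without Gm10800, which gave most of the reads, the sum was 936 CPM in WT, 85.6 in Het, 122 in Hom and 474 in input.

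Single members kept this order of WT above both mutants, with input at different places. Gm10800 (chr2:98666547-98667301, minus strand) had 4716 CPM in WT, 403 in Het, 541 in Hom and 857 in input, and fell by 3.31 ± 0.12 in the mutants (edgeR adjusted p = 8.84e-12). Gm26870 had 107 CPM in WT, 8.22 in Het, 9.92 in Hom and 21.3 in input, and fell by 3.52 ± 0.30 (edgeR adjusted p = 1.70e-06). In both of these genes WT lay further from input than either mutant. Gm21738 (chr14:19415857-19418930, minus strand) had 402 CPM in WT, 36.3 in Het, 55.8 in Hom and 276 in input, and fell by 3.08 ± 0.20 (edgeR adjusted p = 2.24e-08). Here input was close to WT and the mutants departed from it. Gm10801 (chr2:98662237-98664083, plus strand) fell by 2.81 ± 0.20 (edgeR adjusted p = 1.25e-07) and Gm10722 (chr9:3000922-3002330, plus strand) by 3.88 ± 0.33 (edgeR adjusted p = 1.76e-06). Gm10717, with 29 counts in WT, 4 in Het, 12 in Hom and 135 in input, passed the filter and the 2-fold rule without an edgeR call. Of the 7 members under the filter, 4 had no count in any m5C library. The tested members have a low GC content, between 34.3% in Gm10801 and 36.2% in Gm26870.

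**Figure D1:**
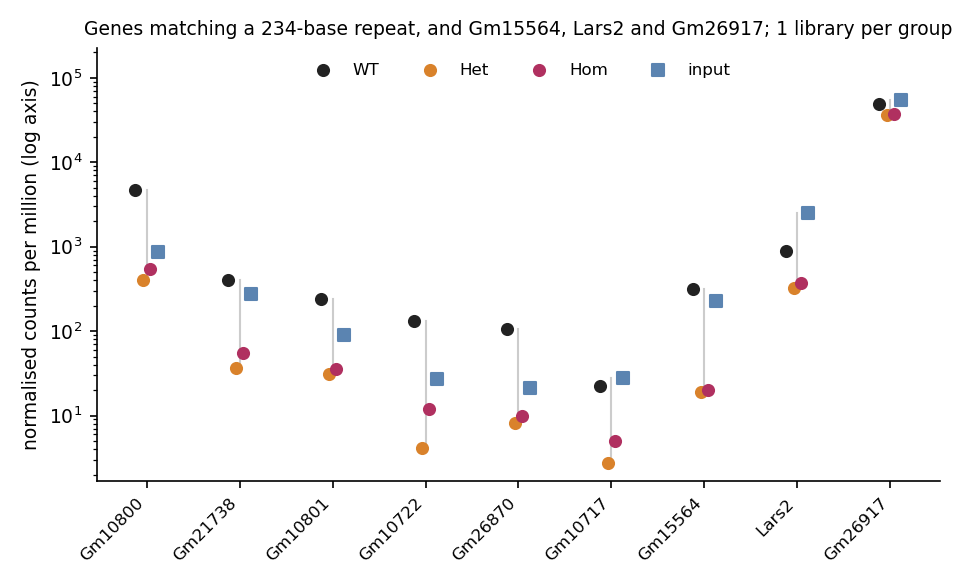
Normalised CPM on a log axis for the 6 tested genes that match the 234-base repeat, and for Gm15564, Lars2 and Gm26917, with 1 point per library (circles for WT, Het and Hom m5C RIP, a square for input). WT lies above Het and Hom in each of the 9 genes, while input lies between WT and the mutants in Gm10800 and above WT in Lars2.

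Outside the repeat genes, the largest fall was in Gm15564. Most tested members of the list of non-polyadenylated RNAs and of the histone genes also lay lower in the mutants. The list of non-polyadenylated RNAs also holds Lars2, Gm10800 and Gm10801, which are annotated as protein-coding. Gm15564 (chr16:35966752-35983230, minus strand; a placeholder name, chosen after its values were seen) had 317 CPM in WT, 19.2 in Het, 19.8 in Hom and 229.7 in input. It fell by 4.01 ± 0.20 (edgeR adjusted p = 6.82e-10), and the mutants, not WT, departed from input. Lars2, the mitochondrial leucyl-tRNA synthetase, had 890 CPM in WT, 325 in Het, 374 in Hom and 2478 in input, and fell by 1.34 ± 0.13 (edgeR adjusted p = 9.12e-06). All 3 m5C libraries were under input in Lars2, the mutants most. Gm26917 took 49090 CPM in WT, 35850 in Het, 36960 in Hom and 55360 in input, a fall of 0.43 ± 0.05 (edgeR adjusted p = 3.04e-05). Whether the reads counted for Lars2 and Gm26917 came from ribosomal RNA was not tested. In the list of non-polyadenylated RNAs, which holds 3 of the repeat genes, all 7 tested members lay below WT in both mutants, 5 of them called. The median log2 ratio was −1.78 in Het and −1.25 in Hom. Of all genes tested, 36.3% lay below WT in both mutants and 0.221% were called lower. The 5 called members are genes already described singly, and the list was chosen with earlier results known, so it adds no separate support. Of 13 tested replication-dependent histone genes, 10 lay below WT in both mutants, 1 above, and none was called. Hist1h1c, a linker histone, had 56.0 CPM in WT, 24.0 in Het, 25.2 in Hom and 29.2 in input (adjusted p = 0.12).

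Genes of chemosensory receptors and genes absent from the input library also had more counts in WT than in either mutant. The 1092 olfactory receptor genes, which are expressed in sensory neurons of the nose, together had 599.9 CPM in WT, 152 in Het, 143 in Hom and 342 in input. A count was seen for 375 of them in the shallowest library, WT, against 71 in Het and 123 in Hom. The 327 vomeronasal receptor genes together had 158 CPM in WT, 29.4 in Het, 36.0 in Hom and 57.6 in input. The 9040 genes with a count of 0 in input, which allows each up to 3 counts or 0.613 CPM there, together had 2181 CPM in WT, against 660.1 in Het and 639 in Hom. At an equal depth of 1310590 counts, 19300 genes had a count in WT, 17218 in Het, 17413 in Hom and 18895 in input. WT thus held more counts of receptor genes and of genes absent from input than either mutant library, and the part of this in the repeat genes and the other lower genes was not tested.

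Mitochondrially encoded transcripts moved the other way. All 12 tested members lay above WT in both mutants and above input in all 3 m5C libraries, and 8 rose in the edgeR test. Over all genes tested, 37.7% lay above WT in both mutants and 0.0864% were called higher. The 12 members and the 1 untested member together had 12540 CPM in WT, 19180 in Het, 18560 in Hom and 9048 in input. In each of the 12 the mutants were furthest from input. mt-Nd2, a subunit of complex I, had 869 CPM in WT, 1672 in Het, 1518 in Hom and 596 in input, and rose by 0.88 ± 0.11 (edgeR adjusted p = 0.00037). mt-Cytb, of complex III, had 1660.0 CPM in WT, 2781 in Het, 2909 in Hom and 1423 in input, and rose by 0.78 ± 0.10 (edgeR adjusted p = 0.00021). mt-Nd6, encoded on the light strand, had 891 CPM in WT, 1547 in Het, 1515 in Hom and 609 in input, and rose by 0.78 ± 0.11 (edgeR adjusted p = 0.0010). The largest value was in mt-Nd4l, with 70.7 CPM in WT, 201 in Het, 138 in Hom and 12.7 in input, a rise of 1.24 ± 0.24 (edgeR adjusted p = 0.026).

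Other members differed less between genotypes. mt-Co1, of cytochrome oxidase, had 4061 CPM in WT, 5372 in Het, 5386 in Hom and 3146 in input, and rose by 0.41 ± 0.08 (edgeR adjusted p = 0.024). mt-Co2 had 414 CPM in WT, 481 in Het, 459 in Hom and 110 in input (adjusted p = 0.65). mt-Atp6 had 288, 360, 322 and 59.9 CPM in the same order (adjusted p = 0.58). The nuclear-encoded respiratory chain held no call: of 75 tested members 32 (42.7%) lay above WT in both mutants and 16 (21.3%) below. Among all genes tested the shares were 37.7% and 36.3%. The chain's median log2 ratios were 0.12 in Het and 0.04 in Hom. The ninth called gene that rose was Malat1, a nuclear-retained noncoding RNA, with 16520 CPM in WT, 21080 in Het, 22290 in Hom and 18170 in input, a rise of 0.39 ± 0.06 (edgeR adjusted p = 0.0019). The mitochondrial transcripts have a median GC content of 37.4%, at the low end of the genes tested.

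**Figure D2:**
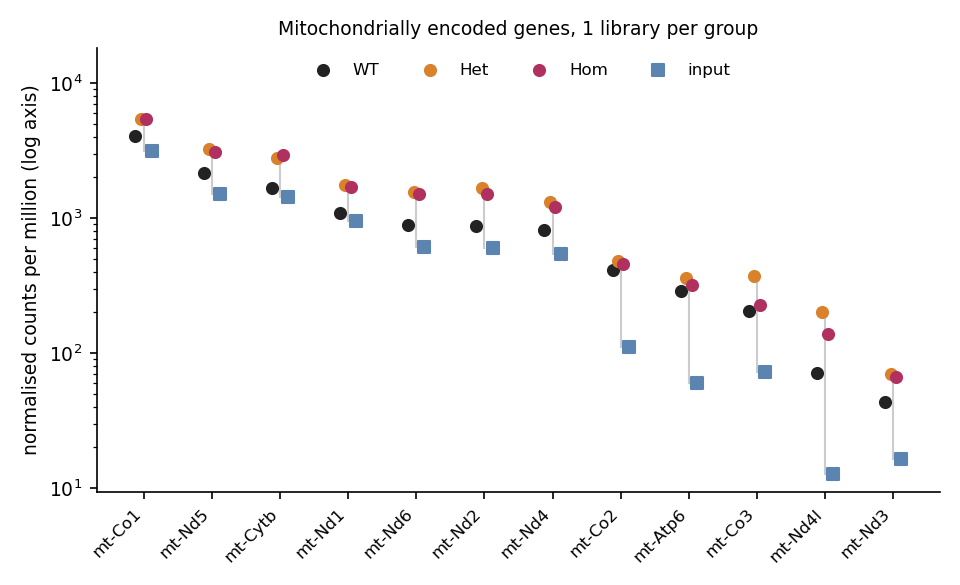
Normalised CPM on a log axis for the 12 tested mitochondrially encoded genes, with 1 point per library (circles for WT, Het and Hom m5C RIP, a square for input). Het and Hom lie above WT, and WT above input, in every gene; the gap to input is widest in mt-Nd4l, with 12.7 in input.

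Across all genes, Het and Hom lay on the same side of WT in 7709 of 10417, above it in 3930 (37.7%) and below it in 3779 (36.3%). Both ratios share the WT library, which by itself places them on 1 side more often than not. At least 2-fold higher in both mutants were 109 genes (1.05%), and at least 2-fold lower 59 genes (0.566%). For scale, Het and Hom were at least 2-fold apart from each other in 270 genes (2.59%). The log2 ratios had an SD over genes of 0.50 for Het to WT, 0.46 for Hom to WT and 0.40 for Het to Hom. None of the 109 was called by edgeR, against 11 of the 59. The 109 had a median of 10 counts in WT (range 2 to 39), 32 in Het, 50 in Hom and 86 in input, so they are low genes whose WT value rests on few reads. Counting intervals of both ratios left out equality in 100 of the 109 and in 58 of the 59. The genes were picked on these same counts and both ratios share the WT count, so this adds no support. At a mean of at least 30 CPM, 16 genes passed the fold in each direction.

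**Figure D3:**
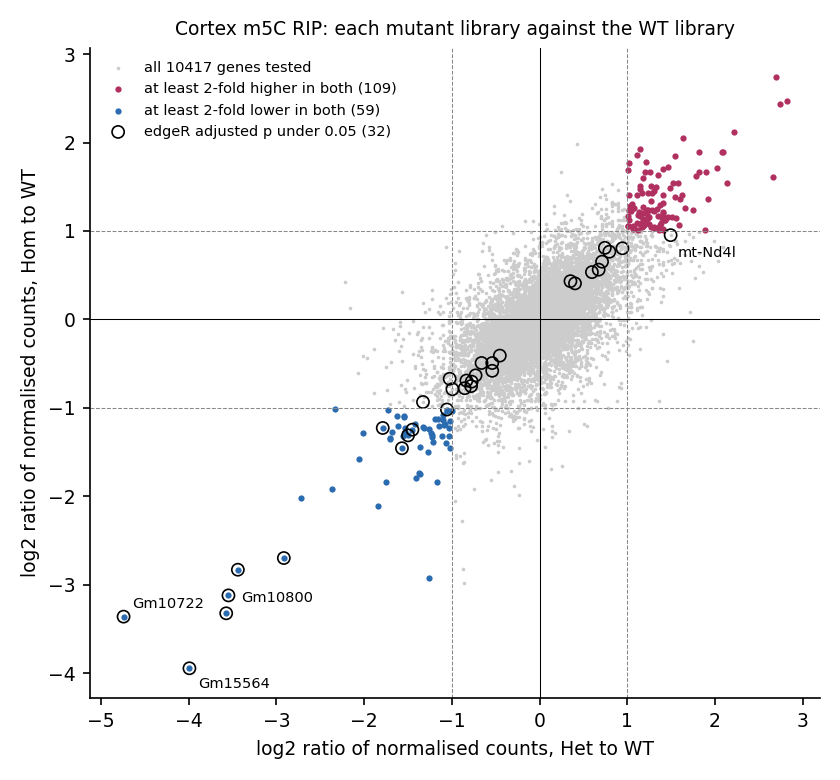
Log2 ratio of normalised counts of Het to WT (x axis) against Hom to WT (y axis) for the 10417 genes tested; both axes share the WT library. Coloured points are the 109 genes at least 2-fold higher and the 59 at least 2-fold lower in both mutants, and rings mark the 32 genes called by edgeR, with Gm15564, Gm10722 and Gm10800 at the lower left.

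Among the genes higher in both mutants, WT was the library that departed from input. WT lay furthest from input in 85 of 109 (78.0%), both mutants did in 16 (14.7%) and in 8 only 1 mutant did. Over all genes the shares were 36.8% for WT and 33.8% for the mutants. WT lay below input in all 109, with a median log2 ratio to input of −1.09, against 0.29 in Het and 0.25 in Hom. WT alone was at least 2-fold from input in 57 of them, and the mutants alone in 2. Input enters neither ratio to WT, but it enters the filter: a gene with few WT counts passes only where the other libraries are high, so these shares are a description of genes picked for a low WT level. Among the 59 lower genes the shares were even: WT was furthest from input in 26 (44.1%) and the mutants in 24 (40.7%). There WT lay above input in 54, with medians of 0.78 in WT, −0.80 in Het and −0.70 in Hom. WT alone was at least 2-fold from input in 11 and the mutants alone in 12.

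**Figure D4:**
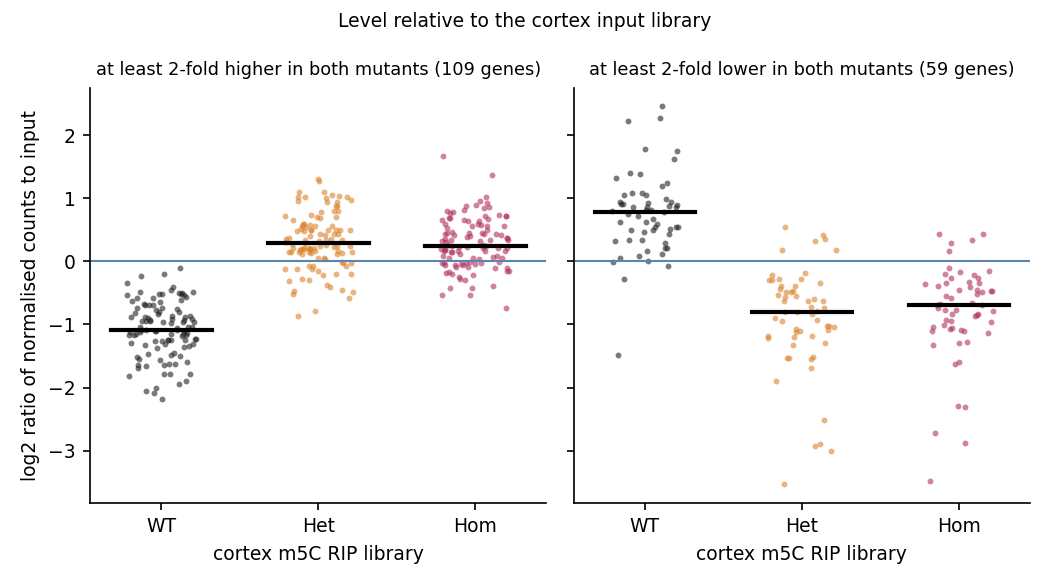
Log2 ratio of normalised counts to the cortex input library (blue line at 0) in the WT, Het and Hom m5C RIP libraries, for the 109 genes at least 2-fold higher (left) and the 59 at least 2-fold lower (right) in both mutants, with 1 point per gene and a black bar at the median. On the left WT is displaced (median −1.09) and the mutants lie near input; on the right WT (0.78) and the mutants (−0.80 and −0.70) lie on opposite sides of it.

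The higher genes with the largest ratios were of mixed function, and none was called in the edgeR test. Trmt10b, of the TRM10 family of transfer RNA methyltransferases, had 3 counts in WT, 31 in Het, 40 in Hom and 61 in input, which is 2.33, 21.2, 16.5 and 12.5 CPM. Ascc1, a subunit of the activating signal cointegrator complex, had 4 counts in WT and 3.11, 25.3, 20.3 and 11.5 CPM in the same order. Nt5e (CD73), the ectoenzyme that makes adenosine from AMP, had 2.33, 13.7, 12.8 and 12.3 CPM. In Nt5e both mutants lay near input and WT alone was low. The same held for Traf6, a ubiquitin ligase of innate immune signalling, with 6.99, 26.0, 23.1 and 23.3 CPM. Nckap5 and Tmem120b also followed it, with 3.11 CPM in WT and 11.6 to 15.1 CPM in the mutants and input. Fam199x had 6.99, 32.2, 28.1 and 23.9 CPM. Fam46c, a noncanonical poly(A) polymerase, had 3.11, 24.0, 11.2 and 11.5 CPM, with WT furthest below input, Hom near it and Het above it.

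Some had mutants that departed from input more than WT did. Fam96b, a factor of cytosolic iron-sulphur cluster assembly, had 3.89 CPM in WT, 15.8 in Het, 16.5 in Hom and 5.93 in input. Actl6a, a subunit of the BAF chromatin remodelling complex, had 3.89, 15.8, 14.1 and 7.15 CPM. Mfap1b, a spliceosome-associated protein, had 3.89, 19.2, 16.5 and 9.40 CPM, with WT slightly further from input. The adjusted p of the genes named here lay between 0.073 (Ascc1, Fam199x) and 0.36 (Tmem120b). Of the 109, 10 had placeholder names.

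The lower genes with the largest ratios included several transcription factors. Egr4, an immediate early zinc finger factor induced by neuronal activity, had 80.8 CPM in WT, 26.7 in Het, 28.9 in Hom and 57.2 in input. It fell by 1.53 ± 0.26 (edgeR adjusted p = 0.011), and the mutants were furthest from input. Zfpm1 (FOG1), a cofactor of GATA factors, had 92.5 CPM in WT, 32.2 in Het, 36.8 in Hom and 47.6 in input, and fell by 1.41 ± 0.25 (edgeR adjusted p = 0.013), with WT furthest. Insm1, a factor of neuroendocrine and neural progenitor cells, had 35.0, 6.16, 8.68 and 19.4 CPM (edgeR adjusted p = 0.053). Zfp40 had 24.1, 6.16, 4.96 and 16.6 CPM (adjusted p = 0.14). Adra1d, the alpha-1D adrenergic receptor, had 46.6, 13.7, 17.8 and 25.1 CPM (edgeR adjusted p = 0.070).

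In Chadl, Insm1 and Zfp40 the mutants departed from input more than WT. Chadl, a collagen-binding matrix protein, had 27.2 CPM in WT, 7.53 in Het, 7.03 in Hom and 23.3 in input. Ppp1r35, a centriole protein, had 31.1, 6.85, 9.92 and 16.6 CPM, and Dennd3, an exchange factor of Rab12, 24.9, 8.90, 6.61 and 13.3 CPM. WT departed more in Sh3yl1, Sdf2l1, Hps3 and Espn. Sdf2l1, of an endoplasmic reticulum chaperone complex, had 29.5 CPM in WT, 11.0 in Het, 10.3 in Hom and 7.97 in input, the mutants being nearest to input. Hps3, of the BLOC-2 trafficking complex, had 31.1, 11.6, 8.68 and 16.4 CPM. Espn, an actin bundling protein, had 26.4, 7.53, 9.92 and 12.1 CPM, and Sh3yl1 22.5, 8.22, 6.20 and 9.40 CPM. The adjusted p of these 7 genes lay between 0.13 and 0.25. Of the 59, 10 had placeholder names, the 6 tested repeat genes among them.

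Called genes with a smaller fall included precursors of secreted peptides and scaffolds of the synapse (those outside the lists were named after their values were seen). Pcsk1n (proSAAS), an inhibitor of prohormone convertase, had 819.8 CPM in WT, 394 in Het, 404 in Hom and 651 in input, and fell by 1.04 ± 0.12 (edgeR adjusted p = 0.00017). Vgf, a secreted neuropeptide precursor, had 525 CPM in WT, 305 in Het, 311 in Hom and 330.1 in input, and fell by 0.77 ± 0.14 (edgeR adjusted p = 0.013). Bsn (Bassoon), a scaffold of the presynaptic active zone, had 1741, 1100.0, 1237 and 1289 CPM, and fell by 0.57 ± 0.11 (edgeR adjusted p = 0.021). Shank1, a scaffold of the postsynaptic density, had 1908, 1312, 1355 and 1413 CPM, and fell by 0.52 ± 0.10 (edgeR adjusted p = 0.024). In Vgf, Bsn and Shank1 the mutants were close to input and WT stood above it, as in Dnmt1. In Pcsk1n input lay between WT and the mutants.

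Unc5a, a netrin receptor, fell by 1.10 ± 0.21 (edgeR adjusted p = 0.023), with 149 CPM in WT, 58.9 in Het, 77.7 in Hom and 104 in input. Rtn4rl2, a Nogo receptor family member, fell by 1.47 ± 0.28 (edgeR adjusted p = 0.022), with 82.4, 23.3, 34.7 and 48.4 CPM. Basp1, a growth cone membrane protein, fell by 0.68 ± 0.12 (edgeR adjusted p = 0.013), with 912 CPM in WT, 549.8 in Het, 588 in Hom and 437 in input, above input in all 3 m5C libraries. The other called genes that fell were Ccnb1ip1, Cbarp, Foxo3, Mapk8ip1 and Maz, by 0.74 to 0.88 on the log2 scale. Ccnb1ip1, a ubiquitin ligase best known from meiotic recombination, was the most abundant of them, with 3147 CPM in WT, 1764 in Het, 1948 in Hom and 1841 in input (edgeR adjusted p = 0.00023). Over the 23 called genes that fell, WT was furthest from input in 11, the mutants in 7, and 5 lay between. Over the 9 that rose, the mutants were furthest in all 9.

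Scaffolds of the synapse and immediate early genes leaned below WT as lists. Of 17 tested postsynaptic scaffold genes 13 lay below WT in both mutants and 2 above, 1 was called, and the median log2 ratio was −0.31 in Het and −0.21 in Hom. Among all genes tested, 36.3% lay below and 37.7% above. Dlgap3, a linker of PSD-95 and Shank proteins, had 659.7 CPM in WT, 409.5 in Het, 452 in Hom and 452 in input (edgeR adjusted p = 0.053). Shank3 had 452, 277, 309.9 and 437 CPM (edgeR adjusted p = 0.076), with input near WT. Of 22 tested presynaptic release genes 14 lay below and 3 above, with 1 call, and medians of −0.13 and −0.10. Syn1 (synapsin I) had 372 CPM in WT, 244 in Het, 254 in Hom and 411 in input (adjusted p = 0.12).

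Of 23 tested immediate early genes, which neurons induce on activity, 17 (73.9%) lay below WT in both mutants and 1 above, against 36.3% and 37.7% of all genes. Their medians were −0.44 in Het and −0.42 in Hom. Besides Egr4, none was called. Jund, an AP-1 subunit, had 53.6 CPM in WT, 17.8 in Het, 26.9 in Hom and 46.2 in input (adjusted p = 0.14). Egr3 had 204, 125, 133 and 163 CPM (adjusted p = 0.13), and Ier5 105, 68.5, 69.0 and 76.2 CPM (adjusted p = 0.29). The median GC content of the list was 54.6%, that of the postsynaptic scaffolds 53.9% and that of all genes tested 49.7%.

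Other lists leaned above WT without a call. Of 31 tested splicing regulators of the Hnrnp and Srsf families 23 lay above WT in both mutants and 4 below, with medians of 0.20 and 0.19. Among all genes tested, 37.7% lay above and 36.3% below. Hnrnpd (AUF1), which binds AU-rich elements, had 110.3 CPM in WT, 171 in Het, 173 in Hom and 126 in input (adjusted p = 0.17). Srsf5 had 260.3, 355, 351 and 206 CPM (adjusted p = 0.27). Hnrnph3 had 18.7, 38.3, 39.7 and 31.7 CPM (adjusted p = 0.24) and was the list's 1 member past the 2-fold rule. Of 27 tested imprinted genes, whose parental expression depends on DNA methylation, 16 lay above and 4 below, with medians of 0.17 and 0.20. Usp29 had 48.2 CPM in WT, 97.2 in Het, 68.6 in Hom and 71.7 in input, and Impact 175, 244, 233 and 224 CPM. In both, WT was furthest from input. The median GC content was 43.6% for the splicing regulators and 47.2% for the imprinted genes.

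No cell type marker was called. No neuron, astrocyte, oligodendrocyte, microglia, endothelial or mural marker passed the 2-fold rule either. Over all genes tested, 0.307% were called, and 1.05% passed the fold rule as higher and 0.566% as lower. At such shares, a count of 0 in short lists says little about the markers. The summed level of 12 tested astrocyte markers was 7143 CPM in WT, 8311 in Het, 7819 in Hom and 6900.0 in input. Of these, 8 lay above WT in both mutants and 3 below. Of 13 tested oligodendrocyte and myelin markers 8 lay above and 2 below, and of 8 microglia and macrophage markers 5 and 3. Endothelial markers had 5 above and 4 below of 12 tested, and mural, meningeal and fibroblast markers 2 and 2 of 9. The 16 excitatory neuron and layer markers summed to 6359, 5104, 5814 and 4769 CPM, with 7 below and 4 above WT in both mutants. Among all genes tested, 36.3% lay below and 37.7% above. Nrgn (neurogranin), a postsynaptic calmodulin-binding protein, had 1141 CPM in WT, 695 in Het, 950.1 in Hom and 756 in input (adjusted p = 0.21). Of 12 tested interneuron markers 6 lay below and 1 above, with medians of −0.01 in Het, −0.15 in Hom and −0.29 for the mean of both. Of 8 tested hippocampus and thalamus markers 6 lay below and none above, with medians of −0.24 and −0.57. Wfs1 had 134 CPM in WT, 71.2 in Het, 103 in Hom and 117 in input. The part of tissue composition in the gene results was not tested.

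The side of WT on which a gene fell varied with its GC content. In the 2071 genes with the lowest transcript GC (31.95 to 43.8%), both mutants lay above WT in 59.0% and below in 17.1%, with median log2 ratios of 0.21 in Het and 0.18 in Hom. In the 2070 with the highest GC (55.6 to 75.5%), both lay below WT in 62.2% and above in 16.1%, with medians of −0.27 and −0.22. Against input, WT and the mutants tilted in opposite directions: in the lowest group the medians were −0.11 in WT, 0.10 in Het and 0.06 in Hom, and in the highest 0.12, −0.14 and −0.11. Pearson's correlation of GC with the log2 ratio to WT across 10351 genes was −0.33 in Het and −0.31 in Hom, given as a description since the ratios share WT and genes are not replicates. GC also differed between the genes past the fold rule: the 109 higher genes had a median GC of 47.1% and the 59 lower ones 54.7%. The edgeR calls lay further apart, with medians of 37.6% in the 9 that rose and 57.3% in the 23 that fell. All 9 that rose were in the lowest GC group, as were 6 that fell, and 13 that fell were in the highest. With the trend on GC removed, an alternative added after the data were seen, 76 genes were higher and 44 lower by at least 2-fold. The edgeR test was not rerun in that way. The repeat genes went against the trend, being low in GC and lower in the mutants. Some gene lists did not follow it either, unlike the splicing regulators and immediate early genes. Microglia and macrophage markers had a median GC of 55.9%, with 62.5% above WT in both mutants and 37.5% below. For clustered protocadherins these values were 52.4%, 53.3% and 26.7%.

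**Figure D5:**
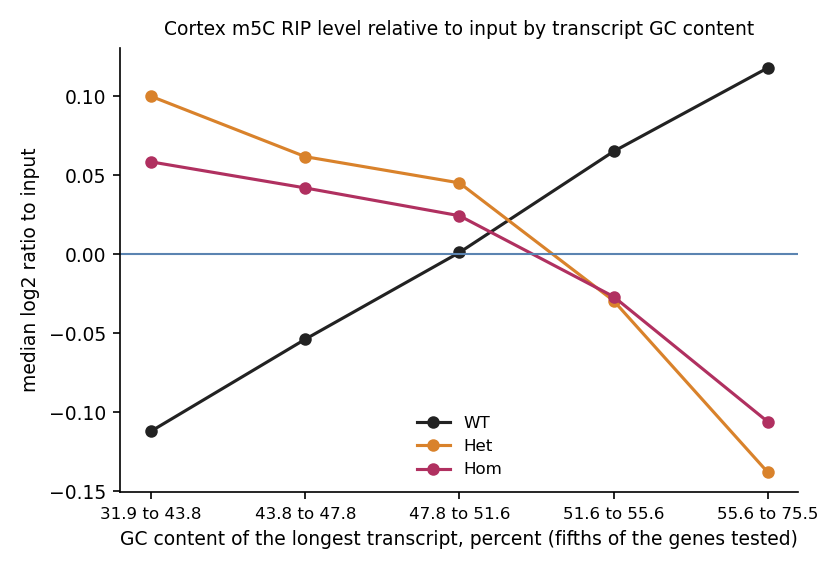
Median log2 ratio of normalised counts to input in the WT, Het and Hom m5C RIP libraries (y axis) for 5 groups of like size of the tested genes, by GC content of the longest transcript (x axis, percent). WT climbs from −0.11 to 0.12 with GC, while Het falls from 0.10 to −0.14 and Hom from 0.06 to −0.11.

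The fibroblast m5C RIP of the same series, with its own WT library (the second; the first was left out because none of its 31017 gene counts is below the count in Hom), offers separate values for the same genes. Of the 109 genes higher in cortex, 70 passed the filter in fibroblasts, of which 25 (35.7%) lay above WT in both mutants and 19 below, where 30.3% of all 8759 genes tested lay above. Of the 59 lower ones, 40 passed, of which 11 (27.5%) lay below WT in both mutants, where 30.2% of all genes did, and 2 (5.0%) above, where 30.3% did. The shares on the same side as in cortex were thus near those of all genes, and few of the lower genes lay on the opposite side. Fibroblast CPM are scaled to total gene counts without TMM factors, unlike the cortex CPM. The 13 repeat genes together had 12010 CPM in the fibroblast WT library, 16050 in Het and 10000 in Hom, levels above those of any cortex library. With tissue as a covariate in 6 libraries, the mutation term called 0 genes in edgeR, with 540 genes at an unadjusted p under 0.05 and a smallest adjusted p of 0.37. The test of the difference between tissues called only Gm15564, which had 1538 CPM in the fibroblast WT library left out and 22.8 in the one used.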

How the data were processed

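The files hold raw counts deposited by the authors for 31017 gene symbols per library, of which 30464 matched GENCODE M21 on mm10. Per the labels' protocols, 1 ug of mRNA isolated on oligo-dT beads was precipitated; both ribosomal RNA depletion and polyA enrichment are named, without saying which served each library. Per the submitters' processing notes, Trim Galore 0.4.1, HISAT2 and featureCounts were used with mm10; the strand setting and annotation were not stated. Entries that name no gene, laid out as by another counter, stayed out of library sizes; reads in no gene numbered 1.22 to 1.82 per gene count.

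Groups came from titles. Ratios used edgeR 4.0.16 in R 4.3.3, with TMM factors over the 4 cortex libraries, a prior count of 2 and a mean of at least 10 CPM. The 1 test was glmQLFit and glmQLFTest on WT against Het with Hom (1 residual degree of freedom, biological coefficient of variation 0.11; the lone WT library is assumed to vary alike), two-sided, Benjamini-Hochberg adjusted, threshold 0.05. In simulated data for this comparison (10417 genes), 93% of 4-fold and 99% of 16-fold changes were recovered, with 12 false calls. Every simulated library, WT included, was drawn with that 1 coefficient of variation. The simulation thus does not cover a WT library that varies more, and does not give the power or error rate in these data. None of the 4 genes at least 4-fold higher in both mutants was called, Trmt10b, Ascc1 and Nt5e among them. In the test of WT against Het with Hom, the SE is the size of the log2 change over the square root of the F statistic. It is thus derived from the test and is no separate measure of precision. A library is furthest from input by the size of its log2 ratio to input. Repeats were matched with blastn 2.17.0.

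Members and lists were chosen with earlier results of these data known. Genes were named by rule: the 12 per direction with the largest smaller ratio past 2-fold in both mutants, leaving out placeholder names and pseudogenes, up to 4 members of each list, and always Dnmt1; some genes that the rule names are not reported here. Alternatives were other scalings, filters, priors and folds, DESeq2 1.42.0, thinning to equal depth, removal of non-polyadenylated RNAs and leaving out Het or Hom. Lists were described by counts and medians, without a set test. The Dnmt1 RIP libraries were not used.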

Additional observations from a re-analysis of the deposited data

Results flagged for a closer look

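The effect of the mutation on Gm15564 differed between tissues in a test of the difference itself (edgeR interaction of tissue and mutation in 6 libraries, 11151 genes, 2 residual degrees of freedom), which was chosen after the data were seen. On the log2 scale the mutants stood at −4.01 to WT in cortex and 0.02 in fibroblasts, a difference of 4.03 ± 0.49 (SE) with an adjusted p of 0.034. In fibroblasts Gm15564 had 22.8 CPM in the WT library used, 21.3 in Het and 30.3 in Hom, against 317, 19.2 and 19.8 in cortex. These fibroblast CPM carry no TMM factors, unlike the cortex CPM. The fibroblast WT library left out had 1538 CPM, so the 2 fibroblast WT libraries go against each other on this gene. Each side of the difference rests on 1 WT library, and the fibroblast side on the choice of that library; the difference was not tested with the other one.

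The repeat genes gave differences of similar size between tissues that did not pass: 2.74 for Gm10801 (edgeR adjusted p = 0.074), 3.87 for Gm10722 (0.101) and 3.35 for Gm10800 (0.201).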

How the results depend on the processing

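The 32 edgeR calls became 99 with no filter on low counts, 121 at a mean of at least 30 CPM, 17 without non-polyadenylated, histone and mitochondrial genes, 137 at equal depth, 20 in DESeq2 (where 9694 genes had no adjusted p) and 0 with fibroblast libraries added and tissue as a covariate. RLE size factors gave 39 calls and total counts alone 30. The 109 genes at least 2-fold higher in both mutants became 811 with no filter, 16 at 30 CPM, 4 at 4-fold, 551 at 1.5-fold, and 205 to 312 without Het or without Hom. The 59 lower ones became 1814, 16, 7, 388, and 193 to 243 in the same order. The percentage of higher genes with WT furthest from input, 78.0, became 100 at 30 CPM and 64.4 to 76.1 without Het or without Hom. That of lower genes, 44.1, became 70.0 with no filter and was 33.3 to 45.1 without Het or without Hom. The causes were not tested, beyond the change in the genes and libraries that each setting admits. Under the alternatives run, no single gene and no list median of at least 0.25 in size changed direction, while medians nearer to 0 were not held to this. The single genes were Dnmt1 and genes named for lying past 2-fold in both mutants, so their direction was largely fixed in advance. Of 259 list medians, 244 moved by less than the gap between Het and Hom (or 0.05), and of 124 values of 25 single genes, 110 did (or 0.1). That gap is the distance between the settings without Het and without Hom. List medians under these settings were thus largely bound to stay within it. Total-count scaling moved the median of all genes to 0.06 in Het and 0.04 in Hom. The edgeR test without Het or without Hom has no residual degrees of freedom and was not run, and WT cannot be left out. No paired analysis was possible because each cortex group holds 1 library. The depth of the WT library limits the higher genes, where 3 counts are worth 2.33 CPM.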

Other observations

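Several glial and vascular genes had values on 1 side of WT without passing a test. Olig1, an oligodendrocyte lineage factor, had 135 CPM in WT, 54.8 in Het, 76.5 in Hom and 94.2 in input (edgeR adjusted p = 0.060), while Olig2 had 23.3 CPM in WT, against 32.2 in Het and 35.1 in Hom. Abcb1a, an efflux transporter of the blood-brain barrier, had 21.8, 50.0, 36.8 and 35.4 CPM, whereas Cldn5, a tight junction protein of the same endothelium, had 25.6, 12.3, 15.3 and 20.6 CPM. Among 30 tested clustered protocadherins, neuronal adhesion genes of 1 locus, 16 (53.3%) lay above WT in both mutants and 8 (26.7%) below. The shares over all genes tested were 37.7% and 36.3%. Pcdhgb4 had 6.99 CPM in WT, 21.9 in Het, 27.3 in Hom and 15.3 in input.

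Of 198 tested C2H2 zinc finger genes, 82 (41.4%) lay above WT in both mutants and 67 (33.8%) below, near the 37.7% and 36.3% of all genes tested. Zfp407 had 29.5 CPM in WT, 78.7 in Het, 66.1 in Hom and 57.8 in input (edgeR adjusted p = 0.068). Of 23 germline genes that DNA methylation silences, 1 passed the filter: Brdt, with 14.8 CPM in WT, 10.3 in Het, 8.27 in Hom and 14.5 in input. Of 25 interferon response genes, 5 passed the filter, 3 above WT in both mutants and 2 below.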
